A study of Mus musculus with 6 samples.

Results

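The calcium handling and membrane genes of muscle were examined in murine tissue around engineered cartilage. The set held 10 genes, taken by symbol from the 48440 genes of the deposited count table: Ryr1, Cacna1s, Trdn, Casq1, Casq2, Atp2a1, Atp2a2, Pvalb, Cav3 and Dmd. All 10 were found in the table. Cartilage had been engineered from rabbit bone marrow mesenchymal stromal cells (BEC), wrapped in an electrospun PCL/collagen nanofibrous membrane and implanted under the skin of BALB/c nude mice. The membranes held axitinib, an inhibitor of the VEGF receptor tyrosine kinases, at 0% (0%-Axitinib group) or 3% of their weight (3%-Axitinib group). The mouse tissue entangled with BEC was taken 12 weeks after implantation, and its poly(A) RNA was sequenced from 3 samples of each group. The hosts were male mice, bought at an age of 6 to 8 weeks, with no further genetic change named. Nude mice lack a thymus and thus most mature T cells, while their B cells and myeloid cells remain. Rabbit cells were present in the constructs of both groups, and the samples labelled as untreated controls were read as the 0%-Axitinib group.

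In skeletal muscle, an action potential travels into the fibre along the T-tubules, where the voltage sensor (the channel encoded by Cacna1s) opens the ryanodine receptor Ryr1 of the sarcoplasmic reticulum. Calcium stored there on calsequestrin is released, binds to the thin filament and starts contraction, and is then pumped back by the SERCA pumps or bound by parvalbumin in fast fibres. Caveolin-3 and dystrophin belong to the surface membrane of the fibre, where dystrophin links the cytoskeleton to the surrounding matrix.

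The number of reads counted on genes was 17761968, 16716411 and 18005908 in replicates 1, 2 and 3 of the 0%-Axitinib group and 9225518, 11686084 and 18403795 in those of the 3%-Axitinib group. Values of a gene are listed below in the same order, as CPM (counts scaled to library size after TMM normalization). A count of 3, used as the floor of detection, corresponded to between 0.156 CPM (0%-Axitinib replicate 1) and 0.329 CPM (3%-Axitinib replicate 1), and this floor covers counting error only. Reads that mapped nowhere in the mouse genome made up 5.47%, 3.84% and 14.9% of the reads in the 0%-Axitinib group and 48.4%, 29.2% and 16.8% in the 3%-Axitinib group. The part of these differences in the results was not tested.

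The libraries differed widely in their content of skeletal muscle RNA. The 18 skeletal muscle markers together took 0.0162%, 0.000969% and 0.00169% of the counts in the 0%-Axitinib group and 1.54%, 0.00229% and 0.792% in the 3%-Axitinib group. Thus 3%-Axitinib replicates 1 and 3 were rich in muscle RNA, 3%-Axitinib replicate 2 lay close to the control samples, and 0%-Axitinib replicate 1 lay above the other control samples. The summed level of these markers was 149, 9.42 and 16.5 CPM in the 0%-Axitinib group and 15598, 24.3 and 8418 CPM in the 3%-Axitinib group. Acta1 (skeletal muscle actin), their most abundant gene by the mean of the 6 samples, was at 35.0, 0.291 and 0.0542 CPM and at 3913, 0.0908 and 1846 CPM. Myh4 was above it in 0%-Axitinib replicate 1 (38.7 CPM) and in 3%-Axitinib replicate 3 (2182 CPM). Of the 18 markers, 14 of 16 tested met the study's criterion (a fold change of at least 1.5 with an unadjusted P-value of at most 0.05) with a higher level in the 3%-Axitinib group, and 0 met it with a lower level. Of all 15257 tested genes, 9.54% met it with a higher and 11.7% with a lower level. Among the markers, Ckm (muscle creatine kinase) and Myh4 (the myosin of the fastest fibres) had 0 counts in 0%-Axitinib replicate 3 and in 3%-Axitinib replicate 2. In the 3%-Axitinib group, 5 of the 18 markers had 0 counts in replicate 2 (Ckm, Myh4, Myh7, Tcap and Tnnc2) and 0 of the 18 in replicates 1 and 3. Others were detected in 3%-Axitinib replicate 2, with 81 counts of Tnnt3, 53 of Actn3, 31 of Tnni2 and 29 of Myoz1. Of the 18, Myoz1 alone was above every control sample there (2.63 CPM), while Myh1 and Tcap were below every control sample. The difference in the share of counts between the groups had P = 0.2 in an exact two-sided permutation test, whose smallest possible P is 0.1. In bulk tissue, a different number of muscle fibres and a different amount of RNA per fibre cannot be told apart, and the part of muscle content in each result below was not tested.

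**Figure D1:**
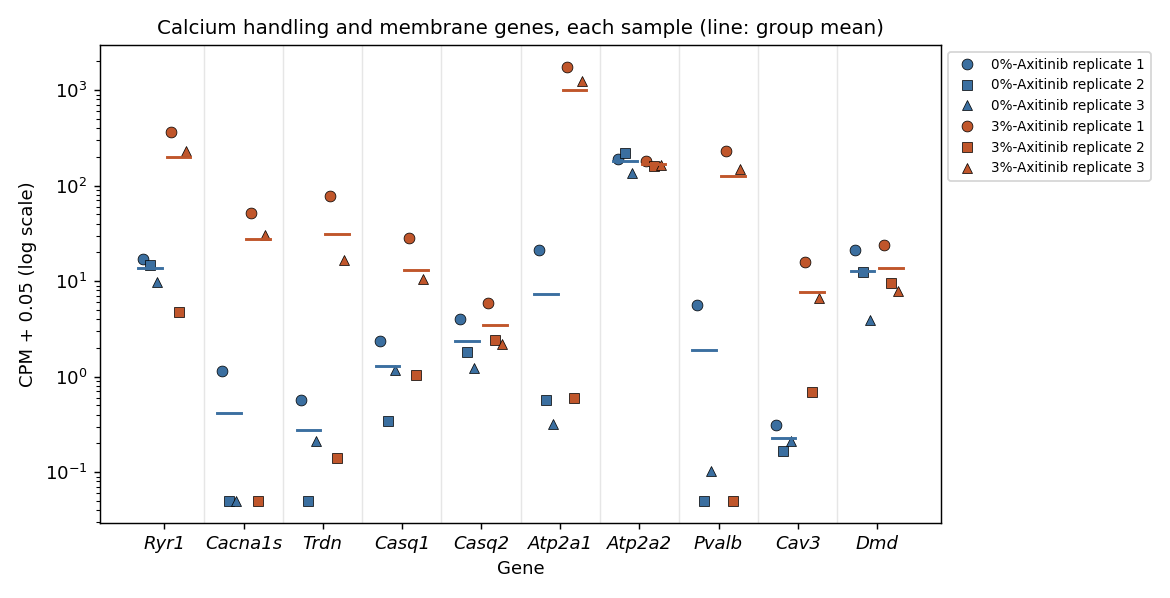
Level of each calcium handling and membrane gene in every sample, as CPM + 0.05 on a log axis, with blue symbols for the 0%-Axitinib group, orange symbols for the 3%-Axitinib group, a symbol shape for each replicate number and a line at the group mean. For 7 of the 10 genes, 3%-Axitinib replicates 1 and 3 lie above every 0%-Axitinib sample, while 3%-Axitinib replicate 2 does so for Cav3 alone.

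Of the 10 genes, 9 had enough counts to be tested, and Trdn did not pass the filter on low counts. Of these 9, 6 met the study's criterion with a higher level in the 3%-Axitinib group (Ryr1, Cacna1s, Casq1, Atp2a1, Pvalb and Cav3), against 9.54% of the 15257 tested genes. In the other direction 0 of 9 met it, against 11.7% of the tested genes. With the Wald test of DESeq2, 4 of 9 met it, without Cacna1s and Pvalb, against 3588 of the 15257 genes in either direction. With limma-voom 1 of 9 (Cav3) met it, against 2951 of 15257 in either direction. At an adjusted p of at most 0.05 by edgeR's quasi-likelihood test with Benjamini-Hochberg adjustment, 0 of 9 were called, against 0.00655% of the tested genes (1 gene). The count was 6 of 9 at an unadjusted P of at most 0.05, against 3585 of all 15257 tested genes. At an adjusted p of at most 0.05, the Wald test of DESeq2 called 4 of 9 (Ryr1, Casq1, Atp2a1 and Cav3), against 1961 of 15257, and limma-voom called 0 of 9, against 2. Without 3%-Axitinib replicate 2, edgeR called 2 of 10 genes at that adjusted p, Ryr1 and Cav3, against 58 of 15940 tested genes. The groups did not overlap, with the 3%-Axitinib samples higher, for 1 gene (Cav3), against 14.7% of the tested genes, and the reverse held for 0 genes, against 16.6%. The median log2 fold change of the 9 genes was 3.84, beside -0.03 over all tested genes. This median is no measure of all 10 genes, since a gene that is low in the 0%-Axitinib group passed the filter through the samples in which it was high.

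The count of genes that met the criterion depended on single libraries. With Trdn counted where it passed the filter, it was 7, 3 and 3 when replicates 1, 2 and 3 of the 0%-Axitinib group were left out in turn, each of 10 tested. Of all tested genes, 3450 of 15868, 2656 of 15871 and 4422 of 15690 met it in either direction in these fits. For replicates 1, 2 and 3 of the 3%-Axitinib group it was 2 of 10, 7 of 10 and 2 of 9, beside 2365 of 15878, 2749 of 15940 and 2468 of 15890 of all tested genes. Without Trdn, the counts in the same order were 6, 2 and 2 of 9 for the 0%-Axitinib group and 1, 6 and 2 of 9 for the 3%-Axitinib group. The number of genes whose 3%-Axitinib samples all lay higher became 3 without 0%-Axitinib replicate 1 and 7 without 3%-Axitinib replicate 2. Atp2a2 alone had all of its 3%-Axitinib samples lower when 0%-Axitinib replicate 3 was left out, a count of 1. For these fits, no share of all tested genes without overlap is given. The shares of 14.7% and 16.6% hold for all 6 samples only, since groups with fewer samples overlap less often. These counts are thus a description only.

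Together, the 10 genes took 0.0284%, 0.0258% and 0.0155% of the counts on genes in the 0%-Axitinib group. In the 3%-Axitinib group they took 0.269%, 0.0168% and 0.177%. Exact 95% intervals (Clopper-Pearson, counting error only) ran from 0.0161% to 0.0176% in 3%-Axitinib replicate 2 and from 0.0150% to 0.0161% in 0%-Axitinib replicate 3. The shares in 3%-Axitinib replicates 1 and 3 lay above every control sample. The difference of 0.131 percentage points between the group means (0.0232% ± 0.00679 and 0.154% ± 0.128, SD, n = 3 each) had P = 0.3 in the exact two-sided permutation test, which cannot go below 0.1. With all counts as denominator, including reads given to no gene, the difference was 0.0645 percentage points (0.0180% ± 0.00635 and 0.0824% ± 0.0630), with P = 0.4 in the exact permutation test. On counts on genes, leaving out 3%-Axitinib replicate 1 gave a difference of 0.0735, and leaving out 3%-Axitinib replicate 2 gave 0.200 percentage points, with P = 0.6 and P = 0.2 in the exact permutation test. Without Atp2a2, the most abundant of them in the control samples, the remaining 9 genes took 0.00793%, 0.00307% and 0.00171% of the counts in the 0%-Axitinib group and 0.251%, 0.00177% and 0.161% in the 3%-Axitinib group.

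The release apparatus was represented by Ryr1, Cacna1s and Trdn. Ryr1, the calcium release channel of the sarcoplasmic reticulum (GRCm38, chr7:29003344-29125179, minus strand), was at 16.9, 14.7 and 9.80 CPM in the 0%-Axitinib group and at 361, 4.72 and 228 CPM in the 3%-Axitinib group. The groups overlapped: 3%-Axitinib replicates 1 and 3 were 21.3- and 13.5-fold above the highest control sample, while 3%-Axitinib replicate 2 lay below all control samples. The counts in the control samples (325, 252 and 181) and in 3%-Axitinib replicate 2 (52) were all well above the floor. The log2 fold change was 3.84 (SE 1.24), with an adjusted p of 0.141 by edgeR's quasi-likelihood test with Benjamini-Hochberg adjustment. Leaving out 3%-Axitinib replicate 2 gave a log2 fold change of 4.41 and an adjusted p of 0.0232 by the same edgeR test. Over all alternatives and tools, the adjusted p of Ryr1 ran from 0.00236 (Wald test of DESeq2) to 0.422 (limma-voom). The criterion was missed without 0%-Axitinib replicate 3 (log2 fold change 3.64) and without 3%-Axitinib replicate 1 (3.08).

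Cacna1s, the pore of the voltage sensor in the T-tubule (chr1:136052750-136119822, plus strand), was at 1.09, 0 and 0 CPM in the 0%-Axitinib group and at 52.2, 0 and 30.5 CPM in the 3%-Axitinib group. These were 21, 0 and 0 counts against 476, 0 and 529 counts. Detection was thus limited to a single control sample and to 3%-Axitinib replicates 1 and 3, which were 47.8- and 27.9-fold above that control sample, and a count of 0 in 3%-Axitinib replicate 2 allows a level of up to 0.273 CPM. Its log2 fold change was 6.18 (SE 2.10), with an adjusted p of 0.152 by edgeR's quasi-likelihood test with Benjamini-Hochberg adjustment. It was 11.65 without 0%-Axitinib replicate 1, where all remaining control counts were 0 and the fitted value depends on the prior count. The criterion was missed when 0%-Axitinib replicate 2 (5.62), 3%-Axitinib replicate 1 (5.33) or 3%-Axitinib replicate 3 (6.08) was left out. It was also missed with the Wald test of DESeq2 (6.24) and with limma-voom (5.60). In GENCODE, 20.0% of the exon bases of Cacna1s overlap an antisense gene, Gm37759, from which its reads cannot be told apart if the counting ignored strand.

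Trdn encodes triadin, which anchors calsequestrin to the release channel (chr10:33080554-33476709, plus strand), and was at 0.520, 0 and 0.162 CPM in the 0%-Axitinib group and at 77.1, 0.0908 and 16.6 CPM in the 3%-Axitinib group. Of the 10 genes it showed the widest gap between the muscle-rich libraries, since 3%-Axitinib replicate 1 was 4.64-fold above 3%-Axitinib replicate 3, while 3%-Axitinib replicate 2 had 1 count and lay within the range of the control samples (10, 0 and 3 counts). When no filter was applied, the log2 fold change was 6.98 (SE 1.72), with an adjusted p of 0.102 over 26823 genes by edgeR's quasi-likelihood test with Benjamini-Hochberg adjustment. In the 5 fits with a library left out in which Trdn passed the filter, its log2 fold change ran from 5.14 (without 3%-Axitinib replicate 1) to 8.40 (without 0%-Axitinib replicate 1), and the criterion was met in all 5. The counts that let Trdn pass the filter lay mainly in 3%-Axitinib replicates 1 and 3 (703 and 288 counts). Its values in these fits are thus a description only.

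The calcium stores were represented by the calsequestrins. Casq1, the form of fast skeletal fibres (chr1:172209894-172219868, minus strand), was at 2.34, 0.291 and 1.14 CPM in the 0%-Axitinib group and at 28.0, 0.999 and 10.4 CPM in the 3%-Axitinib group. Replicates 1 and 3 of the 3%-Axitinib group were 11.9- and 4.46-fold above the highest control sample, whereas replicate 2 lay within the control range, so that the groups overlapped. For Casq1, a log2 fold change of 3.37 was fitted (SE 1.18), with an adjusted p of 0.159 by edgeR's quasi-likelihood test with Benjamini-Hochberg adjustment. The criterion was missed in 4 of 6 fits with a library left out, namely those without 0%-Axitinib replicate 2 (2.90), 0%-Axitinib replicate 3 (3.28), 3%-Axitinib replicate 1 (2.19) or 3%-Axitinib replicate 3 (3.50). With 0%-Axitinib replicate 1 left out, it reached 4.17.

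Casq2, the calsequestrin of cardiac and slow fibres (chr3:102086415-102146514, plus strand), was at 4.01, 1.74 and 1.19 CPM in the 0%-Axitinib group and at 5.81, 2.36 and 2.14 CPM in the 3%-Axitinib group. The groups overlapped, replicate 1 being the highest sample in each. A log2 fold change of 0.56 (SE 0.62) was obtained, with an adjusted p of 0.610 by edgeR's quasi-likelihood test with Benjamini-Hochberg adjustment. This value was 1.21 without 0%-Axitinib replicate 1 and turned to -0.051 without 3%-Axitinib replicate 1.

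Set per kilobase of exon, the scale on which genes can be compared, the level of Casq1 was 0.820, 0.234 and 1.34 times that of Casq2 in the 0%-Axitinib group. In the 3%-Axitinib group the ratio was 6.75, 0.593 and 6.86. The ratio was above every control sample in 3%-Axitinib replicates 1 and 3 and within the control range in 3%-Axitinib replicate 2.

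Calcium uptake into the sarcoplasmic reticulum was represented by the SERCA pumps. Atp2a1 (SERCA1, the pump of fast fibres, chr7:126445858-126463108, minus strand) was at 21.2, 0.523 and 0.271 CPM in the 0%-Axitinib group and at 1746, 0.545 and 1261 CPM in the 3%-Axitinib group. In counts, these were 408, 9 and 5 against 15925, 6 and 21842. Replicates 1 and 3 of the 3%-Axitinib group were 82.2- and 59.4-fold above the highest control sample, 0%-Axitinib replicate 1 was itself far above the other control samples, and 3%-Axitinib replicate 2 lay within the control range. Between the groups, Atp2a1 had a log2 fold change of 7.09 (SE 2.70), with an adjusted p of 0.179 by edgeR's quasi-likelihood test with Benjamini-Hochberg adjustment. It reached 11.28 when 0%-Axitinib replicate 1 was left out. The criterion was missed on leaving out 0%-Axitinib replicate 2 (6.53), 0%-Axitinib replicate 3 (6.52), 3%-Axitinib replicate 1 (6.40) or 3%-Axitinib replicate 3 (6.86). Of the exon bases of Atp2a1, 21.9% overlap Rabep2 on the other strand.

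Atp2a2 (SERCA2, found in slow and cardiac muscle and, as a shared form, in most other cells, chr5:122453513-122502225, minus strand) was at 189, 221 and 135 CPM in the 0%-Axitinib group and at 183, 160 and 165 CPM in the 3%-Axitinib group. All 3 samples of the 3%-Axitinib group lay within the control range. Its log2 fold change was -0.10 (SE 0.24), with an adjusted p of 0.820 by edgeR's quasi-likelihood test with Benjamini-Hochberg adjustment, and was 0.057 without 0%-Axitinib replicate 2. Counts per gene do not separate the muscle form of this pump from the general form.

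Per kilobase of exon, the level of Atp2a1 was 0.196, 0.00415 and 0.00351 times that of Atp2a2 in the 0%-Axitinib group. In the 3%-Axitinib group this ratio was 16.7, 0.00597 and 13.3. With the exon bases shared with other genes left out of the length, it was 21.1 and 16.9 in 3%-Axitinib replicates 1 and 3 and 0.248 in 0%-Axitinib replicate 1. The fast pump thus exceeded the general pump in 2 of 6 libraries. On the same scale, Atp2a2 had the highest level of the 10 genes in all control samples (31.1, 36.3 and 22.2 CPM per kb) and in 3%-Axitinib replicate 2 (26.2 CPM per kb). In 3%-Axitinib replicates 1 and 3, Atp2a1 was highest (502 and 363 CPM per kb), followed by Pvalb (222 and 143 CPM per kb), Atp2a2 (30.0 and 27.2 CPM per kb) and Ryr1 (16.5 and 10.4 CPM per kb), while Dmd was lowest (1.00 and 0.332 CPM per kb). Over all 3 samples of the 3%-Axitinib group, the ranges of Atp2a1, Pvalb and Atp2a2 overlapped, whereas Atp2a2 was above Ryr1 in each sample. In the control samples, the other 9 genes were at 6.11 CPM per kb or less.

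Pvalb, the calcium buffer parvalbumin of fast fibres (chr15:78191114-78206400, minus strand), was at 5.52, 0 and 0.0542 CPM in the 0%-Axitinib group and at 231, 0 and 149 CPM in the 3%-Axitinib group. In counts, these were 106, 0 and 1 against 2108, 0 and 2580. Replicates 1 and 3 of the 3%-Axitinib group were 41.9- and 27.0-fold above 0%-Axitinib replicate 1, the only control sample above the floor, and the groups overlapped through 3%-Axitinib replicate 2, in which 0 counts allow up to 0.273 CPM. For Pvalb, the log2 fold change was 6.07 (SE 2.35), with an adjusted p of 0.183 by edgeR's quasi-likelihood test with Benjamini-Hochberg adjustment. A fitted value of 11.76 was obtained without 0%-Axitinib replicate 1, where the remaining control samples held 0 and 1 counts. The criterion was missed on leaving out 0%-Axitinib replicate 2 (5.49), 0%-Axitinib replicate 3 (5.49), 3%-Axitinib replicate 1 (5.30) or 3%-Axitinib replicate 3 (5.91), and with the Wald test of DESeq2 (6.09) and limma-voom (5.79).

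At the surface membrane, Cav3 (caveolin-3, the muscle form of the caveolins, chr6:112459505-112472872, plus strand) was at 0.260, 0.116 and 0.162 CPM in the 0%-Axitinib group and at 15.9, 0.636 and 6.64 CPM in the 3%-Axitinib group. These were 5, 2 and 3 counts against 145, 7 and 115 counts. Cav3 was the only one of the 10 genes whose groups did not overlap, and its 3%-Axitinib samples were 61.1-, 2.44- and 25.5-fold above the highest control sample. The separation from 3%-Axitinib replicate 2 rests on 7 counts against 5 in 0%-Axitinib replicate 1, and control levels near the floor make each of these folds imprecise. The fitted log2 fold change of Cav3 was 5.35 (SE 1.16), with an adjusted p of 0.0972 by edgeR's quasi-likelihood test with Benjamini-Hochberg adjustment. The criterion was met in all 6 fits with a library left out (log2 fold change 4.29 to 5.89). Without 3%-Axitinib replicate 2, the adjusted p by the same edgeR test was 0.0397. Over all alternatives and tools, the adjusted p of Cav3 ran from 2.52e-05 (Wald test of DESeq2) to 0.280 (edgeR without 3%-Axitinib replicate 1). The counts that let Cav3 pass the filter lay in the 3%-Axitinib samples (145, 7 and 115 counts), the group in which it was high. Its values in these fits are thus a description only, as for Trdn.

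Dmd, which encodes dystrophin (chrX:82948870-85206141, plus strand), was at 21.4, 12.5 and 3.90 CPM in the 0%-Axitinib group and at 23.9, 9.45 and 7.91 CPM in the 3%-Axitinib group. Replicate 1 was the highest sample of each group, and the groups overlapped. A log2 fold change of 0.12 was obtained (SE 0.67), with an adjusted p of 0.927 by edgeR's quasi-likelihood test with Benjamini-Hochberg adjustment. Its direction was not stable: the value was -0.0071 when libraries were scaled to their total counts, -0.32 and -0.55 on leaving out 0%-Axitinib replicate 3 or 3%-Axitinib replicate 1, and 0.74 on leaving out 0%-Axitinib replicate 1. Dmd also gives rise to shorter forms outside muscle, which counts per gene do not separate.

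The genes were also set against the muscle markers within each library, as counts per 1000 counts on the 18 markers, with exact 95% intervals for counting error only. Atp2a1 gave 142 (128 to 158) in 0%-Axitinib replicate 1 and 112 (110 to 114) and 150 (148 to 152) in 3%-Axitinib replicates 1 and 3, so that this control library fell between them. In the libraries poor in muscle RNA, Atp2a1 gave 55.6 (25.0 to 108) and 16.4 (5.29 to 38.7) in 0%-Axitinib replicates 2 and 3 and 22.4 (8.14 to 49.4) in 3%-Axitinib replicate 2, all lower. Ryr1 gave 113 (101 to 127) in 0%-Axitinib replicate 1, against 23.2 (22.4 to 24.0) and 27.1 (26.2 to 27.9) in 3%-Axitinib replicates 1 and 3. Its value was 1556 and 593 in 0%-Axitinib replicates 2 and 3 and 194 in 3%-Axitinib replicate 2, where the markers held only 162, 305 and 268 counts. Relative to the markers, Ryr1 was lowest in the libraries in which its CPM was highest. The marker counts, by which the value is divided, were also highest there (142242 and 145814). This order was not particular to Ryr1, since Casq1 and Cav3 had it as well. Pvalb gave 36.9 (30.1 to 44.9) in 0%-Axitinib replicate 1 and 14.8 (14.2 to 15.5) and 17.7 (17.0 to 18.4) in 3%-Axitinib replicates 1 and 3. Casq1 gave 15.7 (11.4 to 21.0) against 1.79 (1.58 to 2.03) and 1.24 (1.07 to 1.44). For Cav3, the interval in 0%-Axitinib replicate 1 (0.565 to 4.07) covered the values of 1.02 and 0.789 in 3%-Axitinib replicates 1 and 3. In the libraries poor in muscle RNA, Cav3 gave 12.3 (1.48 to 45.3) and 9.84 (2.02 to 29.0) in 0%-Axitinib replicates 2 and 3 and 26.1 (10.4 to 54.6) in 3%-Axitinib replicate 2, all above those values. Atp2a2 and Dmd, which other cells express as well, gave 1267 and 143 in 0%-Axitinib replicate 1, against 11.7 and 1.53 in 3%-Axitinib replicate 1.

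**Figure D2:**
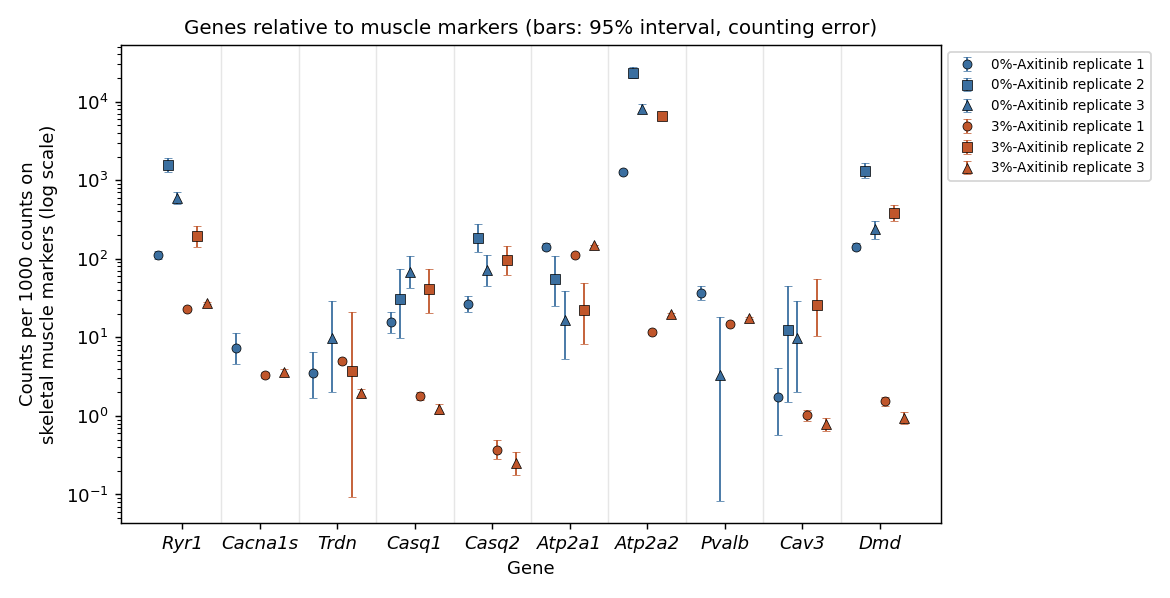
Counts of each gene per 1000 counts on the 18 skeletal muscle markers in every library, on a log axis, with blue symbols for the 0%-Axitinib group, orange symbols for the 3%-Axitinib group and bars for the exact 95% interval of counting error; libraries with 0 counts of a gene are not drawn. Atp2a1 is at 142, 112 and 150 in 0%-Axitinib replicate 1 and in 3%-Axitinib replicates 1 and 3 and lower in the other libraries, while Ryr1 is at 113, 23.2 and 27.1 in the former and higher in the others.

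The wider set of calcium handling and membrane genes held 56 genes, of which 48 were tested. Of these, 16 met the study's criterion with a higher and 5 with a lower level in the 3%-Axitinib group, beside 9.54% and 11.7% of all tested genes, and their median log2 fold change was 0.23. By edgeR's quasi-likelihood test with Benjamini-Hochberg adjustment, 0 of 48 had an adjusted p of at most 0.05, while 21 had an unadjusted P of at most 0.05, beside 3585 of all 15257 tested genes. The Wald test of DESeq2 called 17 of 48, beside 1961 of 15257, and limma-voom called 0. Without 0%-Axitinib replicate 3 edgeR called 6 of 54 tested genes (among them Asph, Slc8a1, Slc8a3, Mtm1 and Sgca), beside 1252 of all 15690, and without 3%-Axitinib replicate 2 it called 4 of 53 (among them Cacng1, Hrc and Srl), beside 58 of all 15940. The number meeting the criterion with a higher level was 9 without 3%-Axitinib replicate 1, and that with a lower level was 3 when 3%-Axitinib replicate 2 or replicate 3 was left out. Of all tested genes, 2365 of 15878, 2749 of 15940 and 2468 of 15890 met it in either direction without 3%-Axitinib replicates 1, 2 and 3. Of the 16 higher genes, 8 had 3%-Axitinib replicate 2 above every control sample, and the other 8 had not. Of all 56 related genes, 15 had this replicate above every control sample, beside 1 of the 10 genes described above (Cav3). This difference was not tested, and no share over all tested genes is given.

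Among the dystrophin complex, 4 of 13 tested genes met the criterion with a higher and 1 with a lower level, beside 9.54% and 11.7% of all tested genes. Sgca (alpha-sarcoglycan, part of the muscle sarcoglycan complex) was at 0.364, 0.233 and 1.95 CPM in the 0%-Axitinib group and at 37.4, 7.27 and 25.9 CPM in the 3%-Axitinib group. Its groups did not overlap, and 3%-Axitinib replicate 2 was 3.73-fold above the highest control sample. The log2 fold change of Sgca was 4.77 (SE 0.97), with an adjusted p of 0.0965 by edgeR's quasi-likelihood test with Benjamini-Hochberg adjustment. Sgca met the criterion in all 6 fits with a library left out (4.30 to 6.24). Without 0%-Axitinib replicate 3, its adjusted p by this edgeR test was 0.0379, in a range from 0.0379 to 0.280 over these fits. Sntb1 (beta-1-syntrophin) was lower at 0.989, 1.51 and 0.650 CPM against 0.548, 0.182 and 0.115 CPM, from 26 counts or fewer per library. Sntb1 had a log2 fold change of -1.97 (SE 0.71) and an adjusted p of 0.164 by edgeR's quasi-likelihood test with Benjamini-Hochberg adjustment, and missed the criterion without 0%-Axitinib replicate 1 (-2.01), 0%-Axitinib replicate 2 (-1.62), 3%-Axitinib replicate 2 (-1.76) or 3%-Axitinib replicate 3 (-1.53).

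In the T-tubule and caveolae list, Cavin4 (listed as Murc, the muscle cavin) was at 0.677, 0.233 and 0.162 CPM in the 0%-Axitinib group and at 19.1, 1.36 and 8.60 CPM in the 3%-Axitinib group. As for Cav3, every 3%-Axitinib sample lay above the control range, with replicate 2 at 2.01-fold the highest control sample. The log2 fold change was 4.72 (SE 1.06), with an adjusted p of 0.0972 by edgeR's quasi-likelihood test with Benjamini-Hochberg adjustment, and all 6 fits with a library left out met the criterion (3.77 to 5.55). The control counts of Cavin4 were few (13, 4 and 3), so that these fits are a description only. Bin1 (amphiphysin 2, which shapes T-tubules and has forms in other cells) was at 100, 77.8 and 123 CPM against 250, 155 and 191 CPM, without overlap. Its log2 fold change was 0.99 (SE 0.27), with an adjusted p of 0.116 by edgeR's quasi-likelihood test with Benjamini-Hochberg adjustment, and the criterion was met in all 6 such fits. Mtm1 (myotubularin, a lipid phosphatase) was lower without overlap, at 29.6, 36.4 and 17.0 CPM against 16.0, 12.2 and 14.3 CPM. For Mtm1 the log2 fold change was -0.97 (SE 0.32), with an adjusted p of 0.143 by edgeR's quasi-likelihood test with Benjamini-Hochberg adjustment, and the criterion was missed without 0%-Axitinib replicate 2 (-0.72), 3%-Axitinib replicate 2 (-0.87) or 3%-Axitinib replicate 3 (-0.98). Without 0%-Axitinib replicate 3, the edgeR adjusted p of Mtm1 was 0.0379, in a range from 0.0379 to 0.318. Cavin1 (listed as Ptrf, the cavin of most cells and the most abundant gene of this list) was at 579, 287 and 354 CPM against 421, 502 and 435 CPM, and the groups overlapped.

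Of the voltage sensor's partners, 3 of 4 met the criterion with a higher level, beside 9.54% of all tested genes. Cacnb1 (the beta subunit of the muscle channel) was at 12.4, 8.84 and 6.61 CPM in the 0%-Axitinib group and at 40.4, 13.4 and 23.8 CPM in the 3%-Axitinib group. The groups did not overlap, although 3%-Axitinib replicate 2 was only 1.08-fold above the highest control sample. Cacnb1 had a log2 fold change of 1.47 (SE 0.45), with an adjusted p of 0.132 by edgeR's quasi-likelihood test with Benjamini-Hochberg adjustment, and the criterion was missed without 3%-Axitinib replicate 1 (1.00). In the junction and release list, 5 of 15 tested genes met the criterion with a higher level and 0 with a lower level, beside 9.54% and 11.7% of all tested genes. Fkbp1a, a binding protein of the release channel and among the most abundant genes of this list, was at 331, 332 and 315 CPM against 368, 396 and 376 CPM. Its groups did not overlap, but its log2 fold change was 0.22 (SE 0.20) and it missed the criterion.

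Among the uptake genes and their regulators, the sodium-calcium exchangers, which move calcium out across the surface membrane, differed in direction. Slc8a3 was at 1.56, 1.05 and 2.98 CPM in the 0%-Axitinib group and at 8.01, 22.6 and 7.68 CPM in the 3%-Axitinib group. Unlike Sgca and Cavin4, it was highest in 3%-Axitinib replicate 2, the library poor in muscle RNA, and its groups did not overlap. The log2 fold change was 2.77 (SE 0.61), with an adjusted p of 0.0972 by edgeR's quasi-likelihood test with Benjamini-Hochberg adjustment, and all 6 fits with a library left out met the criterion (2.08 to 3.27). Slc8a1 was at 4.37, 6.05 and 1.68 CPM in the 0%-Axitinib group and at 0.768, 0.636 and 1.44 CPM in the 3%-Axitinib group. It was lower in every 3%-Axitinib sample, with a log2 fold change of -2.05 (SE 0.61) and an adjusted p of 0.127 by edgeR's quasi-likelihood test with Benjamini-Hochberg adjustment, and 6 of 6 fits met the criterion (-2.52 to -1.65). For both exchangers, the adjusted p by this edgeR test was 0.0433 without 0%-Axitinib replicate 3, in a range up to 0.280 for Slc8a3 and 0.323 for Slc8a1. In the store-operated entry list, 1 of 3 genes met the criterion with a lower level, beside 11.7% of all tested genes. This gene was Stim2, a calcium sensor of the endoplasmic reticulum, at 34.9, 34.6 and 48.1 CPM against 25.3, 25.6 and 21.4 CPM. Its groups did not overlap, and its log2 fold change of -0.70 (SE 0.21) had an adjusted p of 0.130 by edgeR's quasi-likelihood test with Benjamini-Hochberg adjustment. The criterion was missed without 0%-Axitinib replicate 3 (-0.53). The remaining related genes that met the criterion, named after their values were seen, were Cacng1, Stac3, Jph1, Jsrp1, Hrc, Tmem38a, Srl, Sgcb, Dtna and Scn4a with a higher level and Atp2a3 with a lower level. Atp2a3 overlapped between the groups and missed the criterion without 0%-Axitinib replicate 3 (-0.71 instead of -2.43), 3%-Axitinib replicate 1 (-2.26) or 3%-Axitinib replicate 2 (-2.09).

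**Figure D3:**
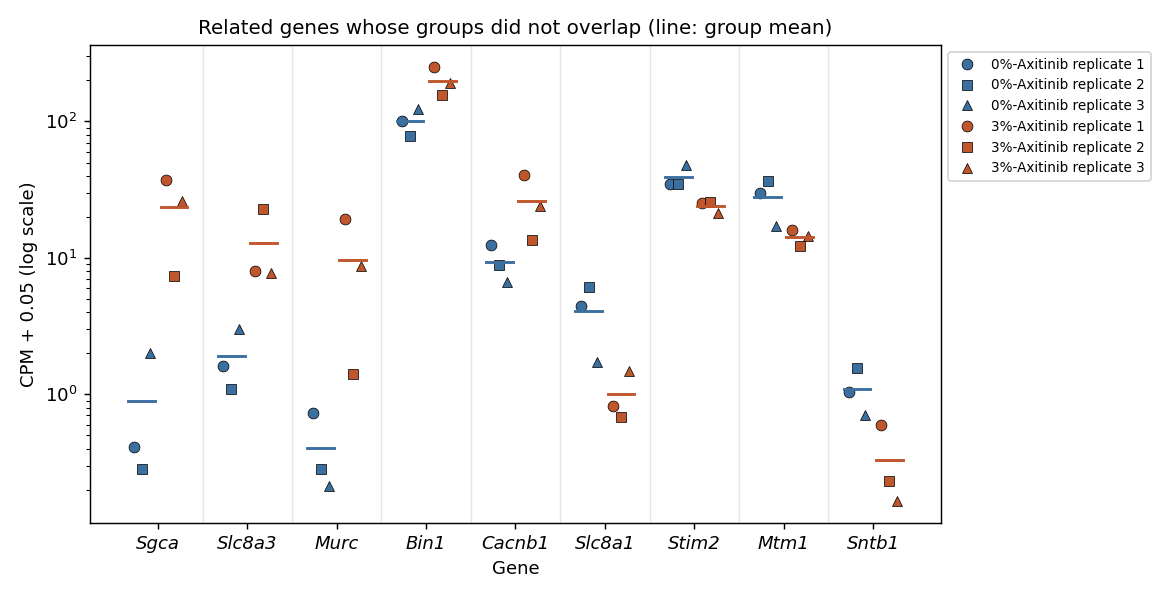
Level in every sample of the related genes named in the text whose groups did not overlap and that met the study's criterion, as CPM + 0.05 on a log axis, with blue symbols for the 0%-Axitinib group, orange symbols for the 3%-Axitinib group and a line at the group mean. Slc8a3 is highest in 3%-Axitinib replicate 2 (22.6 CPM), whereas Sgca and Murc (Cavin4) are lowest there among the 3%-Axitinib samples (7.27 and 1.36 CPM).

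Markers of other cell types were measured beside these genes, and their part in the results was not tested. The counts of markers that met the criterion stand beside 9.54% (higher) and 11.7% (lower) of all tested genes. Of the cardiac muscle markers, 2 of 4 tested (Myh6 and Tnnt2) met the criterion with a higher level and 0 with a lower level, and the list summed to 5.36, 5.99 and 16.7 CPM in the 0%-Axitinib group and 83.3, 13.9 and 17.5 CPM in the 3%-Axitinib group. Its most abundant gene by the mean of the 6 samples was Myl4 (0.729, 0.465 and 7.64 CPM against 50.3, 3.91 and 7.33 CPM). Of the same list, Myl7 had 0 counts in all 6 libraries. Tnni3 was detected in every library, at 2.86, 4.19 and 6.66 CPM against 6.03, 7.81 and 6.52 CPM, and missed the criterion. Smooth muscle markers summed to 446, 153 and 287 CPM against 459, 425 and 229 CPM, 0 of 7 met the criterion, and Acta2 was the most abundant by that mean (144, 38.8 and 85.6 CPM against 144, 180 and 64.4 CPM), although Tagln was higher in the control samples (181, 54.7 and 93.2 CPM) and in 3%-Axitinib replicate 3 (70.2 CPM). Of the endothelial markers, 6 of 7 met the criterion with a lower and 0 with a higher level, with sums of 752, 506 and 725 CPM against 223, 217 and 314 CPM, and Pecam1 as the most abundant gene by that mean (250, 143 and 245 CPM against 50.8, 75.9 and 81.6 CPM). Leukocyte markers summed to 2916, 4107 and 4152 CPM against 1696, 1738 and 3141 CPM, 1 of 6 (Ptprc) met the criterion with a lower and 0 with a higher level, and Laptm5 led the list by that mean (1067, 1489 and 1051 CPM against 651, 687 and 1206 CPM). Fibroblast markers summed to 19256, 9209 and 8956 CPM against 18096, 57445 and 20850 CPM, with 1 of 6 (Col1a1) higher and 0 lower by the criterion, and Col1a1 was also the most abundant by that mean (7110, 3227 and 3172 CPM against 6754, 30551 and 9310 CPM), although Col1a2 was higher in the control samples (8109, 3896 and 4199 CPM). Within the 3%-Axitinib group, Dcn (3538, 2064 and 2591 CPM) and Dpt (605, 252 and 603 CPM) were lowest in replicate 2. Adipocyte markers summed to 607, 592 and 786 CPM against 300.2, 286 and 262 CPM, with 2 of 6 (Fabp4 and Lep) lower and 0 higher by the criterion, and Fabp4 led the list by that mean (545, 534 and 734 CPM against 245, 284 and 251 CPM). Other adipocyte markers differed more within the 3%-Axitinib group, with Adipoq at 16.0, 0.454 and 2.94, Plin1 at 10.7, 0.182 and 1.85, Cidec at 22.0, 0.545 and 4.50 and Retn at 6.03, 0.363 and 1.27 CPM. Schwann cell and neuron markers summed to 1040, 253 and 164 CPM against 1247, 1263 and 1098 CPM, with 1 of 4 tested higher and 0 lower by the criterion, and Mbp was the most abundant by that mean (466, 144 and 104 CPM against 553, 579 and 491 CPM). In the skeletal muscle list, Tnnc2 held at most 2 counts in any library, and 74.0% of its exon bases overlap Ube2c on the other strand.

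Outside all of these lists, the tested genes with a mean of at least 5 CPM whose level over the 6 samples was most like the mean of the 10 genes were Xirp2 (Pearson r = 0.998), Zcchc3 (r = 0.996), Mybpc1 (r = 0.996), Myot (r = 0.995) and Apobec2 (r = 0.994). Xirp2, Mybpc1 and Myot encode proteins of the muscle fibre and its sarcomere. Mybpc1, for example, was at 2.45, 0.0581 and 0.217 CPM in the 0%-Axitinib group and at 299, 0.0908 and 121 CPM in the 3%-Axitinib group. Zcchc3 spanned only 5.72 to 7.46 CPM, as a correlation takes no account of the size of a change. All of these values rest largely on 3%-Axitinib replicates 1 and 3, and they describe these libraries only.

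The genes lie on different chromosomes except for pairs on chromosome 1 (Cacna1s and Casq1) and chromosome 7 (Ryr1 and Atp2a1). Promoter sequences from RefSeq (GRCm38.p6) were listed for 8 of the 10 genes, without Trdn and Atp2a2, and the 250 bases upstream of the start were searched on both strands for letters bound by muscle transcription factors. For Pvalb and Dmd, 2 promoters each were listed, and a single one of each was used. The E-box core CAGCTG, a subset of the general E-box CANNTG, was present in 4 of 8 (Cacna1s, Casq1, Atp2a1 and Cav3), beside 13.0% of 32851 promoters of the same length, and CANNTG in 6 of 8, beside 66.2%. The MEF2 box was present in 3 of 8 (Casq2, Pvalb and Dmd), beside 2.92%, and the CArG box in 1 of 8 (Dmd), beside 1.47%. All 4 genes with CAGCTG met the study's criterion, as did Ryr1 and Pvalb without it. Of the genes with a MEF2 box, Pvalb met it and Casq2 and Dmd did not. These matches are a description of letters and not of bound sites.

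Promoters of 4 genes are shown because they contrast the calsequestrins, whose levels differed in their pattern over the samples, with Pvalb and with Cav3, the gene whose groups did not overlap. Each is given 5′ to 3′ on the strand of its gene, with the matches to CAGCTG or the MEF2 box in capitals: Cav3 from chr6:112459255-112459504 (plus strand), Casq1 from chr1:172219896-172220145 (minus strand), Casq2 from chr3:102086165-102086414 (plus strand) and Pvalb from chr15:78206401-78206650 (minus strand).
Cav3: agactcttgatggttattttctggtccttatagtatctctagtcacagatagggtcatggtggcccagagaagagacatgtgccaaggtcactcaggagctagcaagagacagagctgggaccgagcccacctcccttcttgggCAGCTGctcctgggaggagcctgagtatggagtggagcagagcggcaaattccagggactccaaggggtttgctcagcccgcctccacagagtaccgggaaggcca
Casq1: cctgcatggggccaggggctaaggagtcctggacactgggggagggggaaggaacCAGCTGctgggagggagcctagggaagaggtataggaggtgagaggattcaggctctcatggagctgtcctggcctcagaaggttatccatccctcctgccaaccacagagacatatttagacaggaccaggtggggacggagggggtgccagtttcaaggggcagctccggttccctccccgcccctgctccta
Casq2: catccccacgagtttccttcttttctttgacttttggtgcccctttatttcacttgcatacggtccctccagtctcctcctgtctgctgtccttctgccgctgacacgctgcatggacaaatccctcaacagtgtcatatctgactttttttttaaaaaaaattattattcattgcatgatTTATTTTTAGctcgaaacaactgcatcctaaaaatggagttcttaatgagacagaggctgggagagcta
Pvalb: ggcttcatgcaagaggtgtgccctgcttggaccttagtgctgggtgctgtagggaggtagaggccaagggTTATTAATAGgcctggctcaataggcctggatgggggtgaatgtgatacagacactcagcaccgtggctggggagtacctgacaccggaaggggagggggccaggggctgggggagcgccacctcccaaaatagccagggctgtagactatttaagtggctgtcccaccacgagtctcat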

How the data were processed

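RNA-seq of murine tissue entangled with BEC from 3 samples with 0%-Axitinib membranes and 3 with 3%-Axitinib membranes was analysed. The authors selected poly(A) RNA, filtered the reads with fastp, mapped them to mm10 (GRCm38) with STAR 2.5.2b (version from the submitters' processing notes) and deposited raw read counts per gene symbol. The annotation release and the strand setting of the counting are not given in the sources used here. Reads given to no gene entered neither the library sizes nor the tests, with unmapped reads at 3.84% to 48.4%, multimapping reads at 2.71% to 6.65%, reads outside genes at 3.17% to 6.14% and ambiguous reads at 3.55% to 5.74% of a library. Samples labelled untreated were assigned to the 0%-Axitinib group, since the design text and the deposited protocol describe only membranes with 0% or 3% of the drug.

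Tests on the counts used edgeR 4.0.16 under R 4.3.3 (filterByExpr with minimum count 10 and minimum total 15, TMM, quasi-likelihood test, Benjamini-Hochberg adjustment over 15257 genes), and the steps were tested on simulated data. The study's criterion was a fold change of at least 1.5 with an unadjusted P of at most 0.05. Alternatives were DESeq2 1.42.0, limma-voom (limma 3.58.1), other scalings and filters, the replicate number as a block and each library left out in turn. Shares were compared by exact permutation tests (scipy 1.17.1, Python 3.11.15), and figures were drawn with matplotlib 3.10.9. Positions and exon lengths came from GENCODE M21 (GRCm38), and promoters from RefSeq (GRCm38.p6). A pair of constructs of the same group was implanted in each mouse and it is not given which samples shared a mouse, so that P-values measure only the spread between these samples.

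The 10 genes, the related list and the marker lists were chosen with earlier results of these data known. Named were all 10 genes, of the related list the genes that met the criterion without overlap (up to 6 in each direction by P) and the 3 most abundant, the most abundant gene of each marker list, and the 5 genes most like the mean of the 10. Other genes were named after their values were seen. Some genes that this rule names are not reported here.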

Additional observations from a re-analysis of the deposited data

How the results depend on the processing

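Of 121 alternative values of single genes, 90 kept their direction and their side of the criterion, 26 missed the criterion and 5 changed sign. The sign changes were those of Dmd (-0.0071 with total counts as scaling, -0.32 without 0%-Axitinib replicate 3 and -0.55 without 3%-Axitinib replicate 1), Atp2a2 (0.057 without 0%-Axitinib replicate 2) and Casq2 (-0.051 without 3%-Axitinib replicate 1), and their cause was not tested. With each library left out in turn, log2 fold changes ran from -0.051 to 1.21 for Casq2, from -0.28 to 0.057 for Atp2a2 and from -0.55 to 0.74 for Dmd. Scaling by total counts moved the median of all genes from -0.03 to -0.16, and the fit with no filter moved it to -0.15, over 26823 genes.

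The 6 of the 10 genes that met the criterion with a higher level became 1 of 9 with limma-voom. When at least 10 counts were required in every sample, the count was 1 of 4 (Ryr1), since only Ryr1, Casq2, Atp2a2 and Dmd were then tested. Of all tested genes, 2951 of 15257 and 2841 of 13035 met the criterion in these fits, in either direction. With a library left out, the count among the 10 genes ran from 2 to 7, with Trdn, which passed the filter and met the criterion in 5 of these fits. Without Trdn it ran from 1 to 6. Genes whose groups did not overlap numbered 0 with at least 10 counts in every sample, and 1 to 7 (higher) and 0 to 1 (lower) with a library left out. No share of all tested genes is given beside these counts, which are thus a description only. The median log2 fold change of 3.84 became 0.32 with at least 10 counts in every sample. Related genes with a higher level numbered 8 with limma-voom instead of 16 and 9 to 21 with a library left out, and those with a lower level 3 to 7 instead of 5. Of all tested genes, 2951 of 15257 met the criterion in either direction with limma-voom. With a library left out, this ran from 2365 of 15878 to 4422 of 15690. At an adjusted p of at most 0.05, edgeR called 1 gene of all tested, 15 with no filter and 0 to 1252 with a library left out (1252 without 0%-Axitinib replicate 3), against 1961 by the Wald test of DESeq2 and 2 by limma-voom. Overlap of groups was not computed anew for limma-voom and the block, which use the same values per sample.

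With the replicate number as a replicate block, 4 of the 9 tested genes met the criterion (Cacna1s, Casq1, Pvalb and Cav3), beside 2603 of all 15257 in either direction. The median log2 fold change of the 9 was 3.03, and 2 genes of all tested were called at an adjusted p of at most 0.05. Deviations of same-numbered samples from their group means correlated with r = 0.18, -0.12 and -0.17 across genes, and not every sample correlated best with its own number. The deviations within a group depend on each other, so these values cannot decide whether the numbers pair the samples.

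Depth limits the genes with few counts in the control samples (Cacna1s, Trdn, Pvalb and Cav3), whose fold changes rest on 0 to 3 counts in some libraries. In 3%-Axitinib replicate 1, the shallowest library, 3 counts correspond to 0.329 CPM. With 3 samples against 3, the exact permutation test cannot go below P = 0.1.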
